A study of Rattus norvegicus with 141 samples.

Results

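Brush border digestive hydrolases are enzymes anchored in the microvillus membrane of the enterocyte, where they carry out the last steps of digestion at the surface that absorbs the products. The set examined here was defined by symbol: Sis, Lct, Mgam, Treh, Anpep, Mme, Dpp4, Alpi, Enpep and Tmprss15. Of the 10 symbols, 8 matched a row directly and Sis (sucrase-isomaltase) is listed under its rat symbol Si, so that 9 genes of 30562 were followed. Their identifiers in the tables are ENSRNOG00000031067 (Si), ENSRNOG00000003681 (Lct), ENSRNOG00000052010 (Treh), ENSRNOG00000014610 (Anpep), ENSRNOG00000051854 (Enpep), ENSRNOG00000030763 (Dpp4), ENSRNOG00000009514 (Mme), ENSRNOG00000030020 (Alpi) and ENSRNOG00000001916 (Tmprss15). Mgam (maltase-glucoamylase) was matched to no row, so its expression was not analysed here. A pair of rows named Mgam2 was described apart and was not counted among the 9.

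The disaccharidases of the set are Si, which splits sucrose and starch fragments, Lct (lactase), which splits milk sugar, and Treh (trehalase), which splits trehalose. Its peptidases are Anpep (aminopeptidase N), Enpep (aminopeptidase A), Dpp4 (dipeptidyl peptidase 4) and Mme (neprilysin), which trim peptides before di- and tripeptides and amino acids are taken up. Alpi (intestinal alkaline phosphatase) removes phosphate groups at the same membrane, and Tmprss15 (enteropeptidase) cuts trypsinogen to trypsin and so starts the activation of the pancreatic proteases. Enterocytes switch these genes on as they leave the crypt and mature on the villus, and the HNF4, CDX2 and GATA families of transcription factors are known to drive many of them.

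RNA with poly(A) tails was sequenced from whole pieces of duodenum, stomach and liver of male and female Sprague-Dawley rats, adult, wild-type and kept on standard chow. The rats received vehicle alone, or microplastics at 5 mg/kg (low dose) or 50 mg/kg (high dose). There were 47 duodenum, 48 stomach and 46 liver libraries, with 8 per sex and dose except for 7 duodenum female controls and 6 liver female high-dose libraries. Tissue pieces were pulverised whole and their mass varied, so fewer enterocytes and less RNA per enterocyte cannot be told apart in any value below. The labels give 3 batches and do not say whether each library came from a separate animal, so p-values measure the spread between these libraries. A duodenum library held 5470004 to 25503758 estimated reads, a stomach library 4947816 to 23940151 and a liver library 6153367 to 23716939. The summed level of gastric gland genes was 83530 to 150600 CPM (estimated counts with every library scaled to the same total) in stomach controls and 1.48 to 82.7 CPM in duodenum controls, and hepatocyte genes summed to 85990 to 148800 CPM in liver controls.

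The DNA just upstream of these genes is shown for 3 members. The promoter is only 1 of the places where the intestinal transcription factors named above can act. Alpi is the member called at the high dose, Lct has the most negative difference there, and Si is among those that differed little. Each line holds the 120 bases before the gene's start in RefSeq's table for build GRCr8, read 5′ to 3′ on the gene's own strand, which is the minus strand for all 3. Capitals mark exact matches, on either strand, to TTTATG (CDX2), GATAA (GATA factors) or CAAAGT (HNF4).
Si, chr2:159884903-159885022: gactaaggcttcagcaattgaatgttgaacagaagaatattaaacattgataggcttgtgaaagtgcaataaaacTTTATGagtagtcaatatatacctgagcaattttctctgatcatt
Lct, chr13:42376873-42376992: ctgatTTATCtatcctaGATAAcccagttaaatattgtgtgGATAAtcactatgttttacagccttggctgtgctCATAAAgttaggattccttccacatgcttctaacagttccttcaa
Alpi, chr9:95224781-95224900: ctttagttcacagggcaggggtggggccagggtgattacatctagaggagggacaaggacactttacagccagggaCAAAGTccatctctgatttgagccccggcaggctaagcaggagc
The CDX2 letters of Si and Lct both lie 45 to 40 bases upstream of the start, on opposite strands. Lct alone of the 3 carries GATA letters in this window, at 3 places. Over 250 bases upstream, 9 of the 10 symbols had a RefSeq entry, with Mgam among them and Treh not, so these are not the same 9 genes as those followed in the counts. The GATA letters occurred in 3 of those 9 promoters and in 23.5% of all 33469 promoters, the CDX2 letters in 3 and in 11.4%, and the HNF4 letters in 1 and in 12.9%. These are matches of letters and not measured binding.

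One duodenum library, male control replicate 1, was described apart from the other 46. Its Fabp6, the ileal bile acid-binding protein, stood at 3521 CPM against 0.0536 to 4.48 CPM in the others. Slc10a2, the ileal bile acid transporter, stood at 463 CPM against 1.46 to 11.7 CPM, and no read was counted for Pdx1, a duodenal transcription factor at 33.9 to 65.5 CPM in the others. The hydrolases split in this library. Tmprss15 gave 1 read (0.0979 CPM, against 19.8 to 502 CPM elsewhere) and Treh 10 reads (0.979 CPM, against 56.5 to 353 CPM). Lct at 28.4 CPM, Alpi at 57.6 CPM and Mme at 83.9 CPM were also below every other duodenum library. Enpep, at 2213 CPM, was above all others, whose range was 109 to 393 CPM. Dpp4 at 622 CPM exceeded 45 of 46 libraries, Anpep at 1085 CPM exceeded 27, and Si at 677 CPM exceeded only 1. Vil1 (villin, a microvillus bundling protein) at 1757 CPM and Cdx2 at 344 CPM were present in it. All duodenum results below leave this library out, and the larger changes that its return makes in the values of the hydrolases are given beside them.

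The enzymes spanned wide ranges in the 14 remaining vehicle controls, and the carbohydrate enzymes did so unequally. Si ranged from 892 to 3817 CPM with a median of 1830. Lct ranged from 46.1 to 1062 CPM with a median of 381, and Treh from 70.1 to 323 CPM with a median of 185. Relative to its median, Lct thus varied more among the untreated libraries than Si did.

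Relative to their lowest level, Dpp4 and Enpep had the narrowest ranges of the set. Anpep ran from 443 to 1968 CPM with a median of 1138, Mme from 181 to 705 CPM with a median of 356, Dpp4 from 219 to 627 CPM with a median of 364, and Enpep from 146 to 388 CPM with a median of 275. Alpi ran from 306 to 1997 CPM with a median of 891. Tmprss15 had the widest relative range, from 19.8 to 502 CPM. Of its 14 controls, 8 lay between 19.8 and 140 CPM and 6 between 376 and 502 CPM, with none in between. At the low and high dose, 4 and 7 libraries fell into that gap, 1 low-dose library lay at or above 376 CPM, and no high-dose library did. The 6 controls highest in Tmprss15 were also the 6 highest in Lct, Dpp4 and Alpi. For Si, Treh, Anpep, Mme and Enpep 5 of the 6 were shared. Among those 6 controls was also the lowest Enpep level of all controls, 146 CPM.

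**Figure D1:**
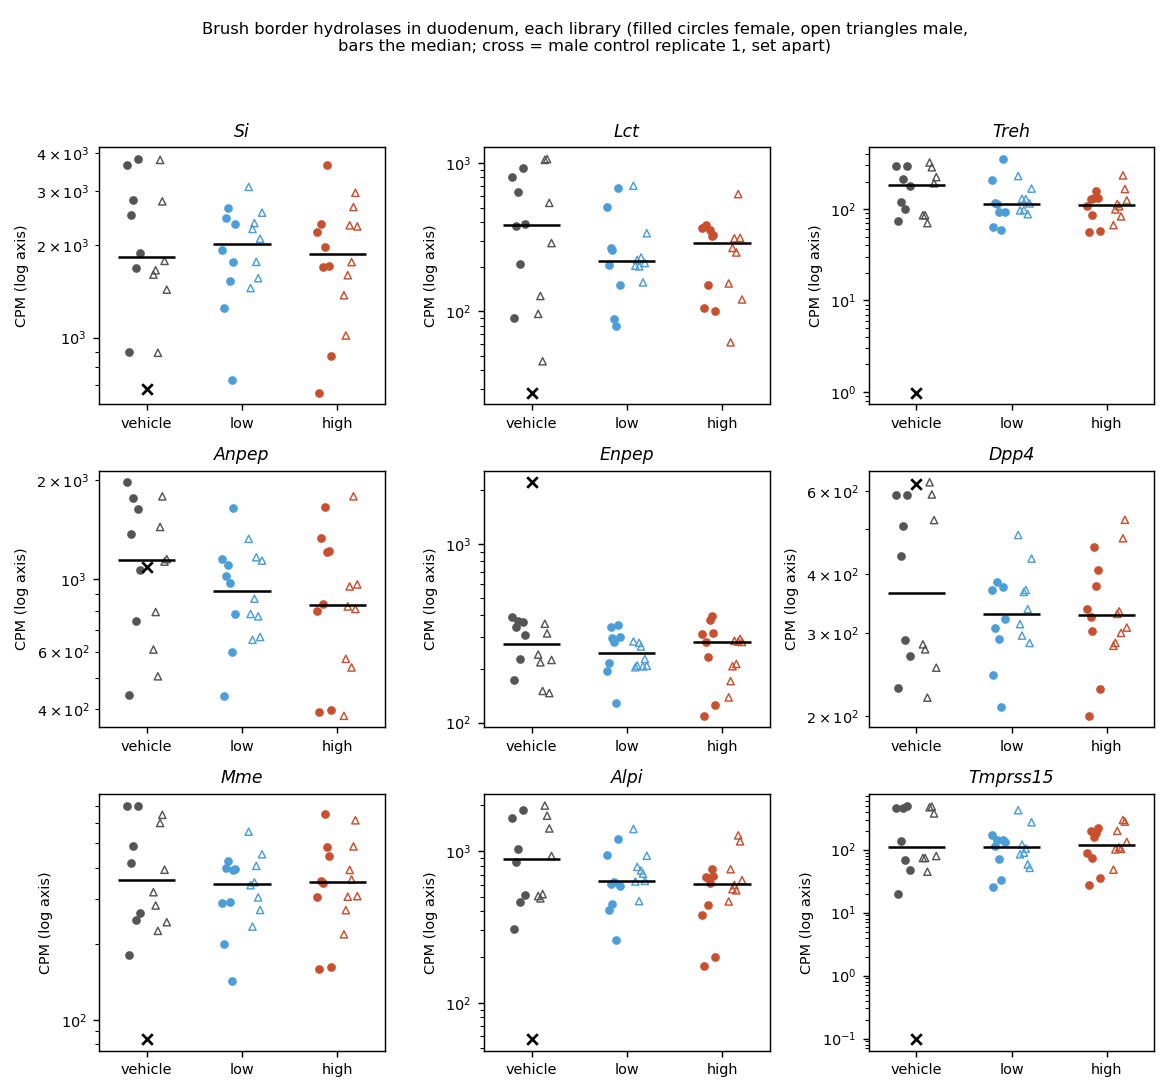
Level of the 9 hydrolases in every duodenum library (CPM, log axis) for vehicle, low dose and high dose, with filled circles for females, open triangles for males, a bar at each group's median over 14, 16 and 16 libraries, and a cross for male control replicate 1. The groups overlap for all 9 genes, and the 6 controls at 376 CPM and above in Tmprss15 stand over all 16 high-dose libraries.

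At the high dose 1 of the 9 hydrolases passed the test, Alpi, and it fell. Its level was 175 to 1269 CPM with a median of 605 in the 16 high-dose libraries, against 306 to 1997 CPM with a median of 891 in controls. The groups overlapped, although 14 of 16 high-dose libraries lay below the control median and 5 controls lay above the highest high-dose library. The log2 difference was −0.82 ± 0.28 (SE; edgeR quasi-likelihood test, Benjamini-Hochberg adjusted p = 0.0488). It was −0.99 within batch 1 alone and −1.04 within batch 2 alone, without passing the test in either (adjusted p = 0.851 and 0.0726). The same test called 1829 of 15164 genes, or 12.1%, with 5.53% of all genes called lower and 6.54% higher. One call among 9 is close to that background. Alpi's call sits at the threshold: the adjusted p was 0.0297 with DESeq2, 0.102 with male control replicate 1 returned, and between 0.0235 and 0.110 when 1 of the 46 libraries was left out in turn, with a call in 16 of 46 such fits.

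Reads of Alpi cannot be fully told from those of its neighbours in the alkaline phosphatase family. Its estimated count was not whole in 46 of 47 duodenum libraries (tolerance 0.01), which for the 8 other members never happened. The related rows Akp3, Alpg and Alpp were not whole in 42, 46 and 11 libraries. Akp3, another intestinal alkaline phosphatase, showed a log2 difference of −1.54 ± 0.52 at the high dose (edgeR adjusted p = 0.0468). With the rows of the family summed, the difference was −1.13 ± 0.38 (edgeR adjusted p = 0.0464). Both the Alpi row and the summed rows thus fell, but the sum includes Alpi itself and is not a separate observation.

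None of the 3 disaccharidases passed the test at the high dose. Treh came nearest, at 56.5 to 233 CPM with a median of 111, against a control median of 185 CPM. Its log2 difference was −0.73 ± 0.27 (edgeR adjusted p = 0.0662), 15 of 16 high-dose libraries lay below the control median, and DESeq2 gave an adjusted p of 0.0495. Lct was at 61.9 to 616 CPM with a median of 289, against 381 CPM in controls. Its difference was −0.95 ± 0.40 (edgeR adjusted p = 0.105), the most negative of the set, and 15 of 16 libraries lay below the control median. Si was at 662 to 3656 CPM with a median of 1865, close to the control median of 1830, and its difference was −0.25 ± 0.24 (edgeR adjusted p = 0.504). The difference in sucrase-isomaltase was about the size of its standard error.

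The peptidases did not pass the test at the high dose either. Anpep had a median of 830 CPM against 1138 in controls and a log2 difference of −0.43 ± 0.25 (edgeR adjusted p = 0.239). Dpp4 had a median of 327 CPM against 364 and a difference of −0.32 ± 0.18 (edgeR adjusted p = 0.215). Mme differed by −0.24 ± 0.23 and Enpep by −0.17 ± 0.19 (edgeR adjusted p = 0.498 and 0.565). Enpep depended on the library described apart: with it among the controls the difference was −0.61 ± 0.26 (edgeR adjusted p = 0.0917). For Tmprss15 the level was 27.5 to 296 CPM with a median of 120, above the control median of 109, while the fitted log2 difference was −0.82 ± 0.44 (edgeR adjusted p = 0.203). Enteropeptidase illustrates a difference carried by the upper end: 8 of 16 high-dose libraries were below the control median and 6 controls were above every high-dose library.

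All 9 fitted differences were negative at the high dose, with a median of −0.43 against −0.003 over all genes tested. They stayed negative in each of 46 fits without 1 library, within batch 1 and within batch 2. Batch 3, with 1 control of each sex, 2 female high-dose libraries and no male high-dose library, was not fitted alone. Within batch 1 the differences ran from −1.28 (Tmprss15) to −0.40 (Enpep), with a median of −0.62. Within batch 2 they ran from −1.14 (Lct) to −0.09 (Enpep), with a median of −0.50. The members move together from library to library, as shown further on, so these are not 9 separate observations.

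At the low dose no hydrolase passed the test, and neither did any of the 15164 genes (0%; 1594 had an unadjusted p under 0.05, and DESeq2 called 6 genes, none a member). Alpi had a median of 633 CPM and a log2 difference of −0.57 ± 0.29 (edgeR adjusted p = 0.477). Lct had a median of 217 CPM and a difference of −0.82 ± 0.41, and Tmprss15 a median of 109 CPM and a difference of −0.88 ± 0.45 (edgeR adjusted p = 0.480 and 0.483). Treh, with a median of 114 CPM, differed by −0.53 (edgeR adjusted p = 0.490). Si ranged from 726 to 3096 CPM with a median of 2012, above the control median, and differed by −0.21 ± 0.24. Among the peptidases Anpep (median 919 CPM) differed by −0.36, Dpp4 (329 CPM) by −0.30, Mme (346 CPM) by −0.29 and Enpep (247 CPM) by −0.17, with adjusted p between 0.541 and 0.757 in edgeR. With male control replicate 1 returned Enpep was at −0.59 (edgeR adjusted p = 0.308). The median over the 9 genes was −0.36, and every group overlapped its controls. Both doses were set against the same controls, so the low-dose and high-dose values are not independent of each other.

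The low-dose values were unlike in batches 1 and 2, a contrast that was not itself tested. Within batch 2 Alpi differed by −1.36, Treh by −1.24 and Lct by −1.75 and all 3 fell (edgeR adjusted p = 0.0449, 0.0449 and 0.0454), with Tmprss15 at −1.81 (adjusted p = 0.089). Over all genes 193 of 15185 were called in that fit, or 1.27%. Within batch 1 the differences were −0.04 for Alpi, 0.0068 for Treh, −0.22 for Lct and −0.32 for Tmprss15, and none passed. High and low dose set against each other gave differences between −0.25 and 0.06 for the members. No gene was called in that comparison (0%; 2053 had an unadjusted p under 0.05, and DESeq2 called 14).

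**Figure D2:**
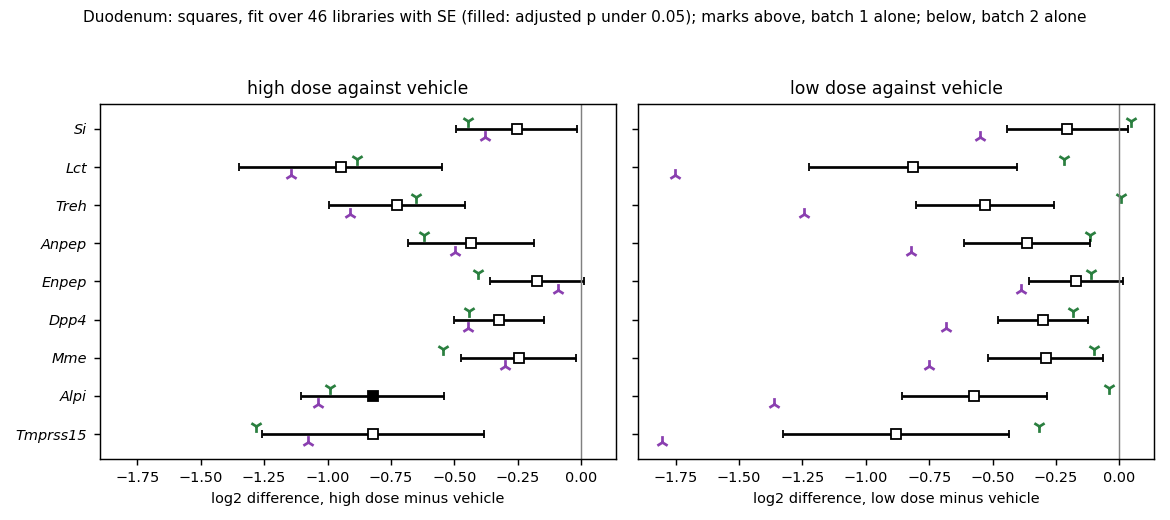
Log2 difference from vehicle controls with its standard error for each hydrolase, at the high dose and at the low dose, from the fit over 46 duodenum libraries, where a filled square marks an edgeR adjusted p under 0.05. The mark above each square is batch 1 alone and the mark below it is batch 2 alone; at the low dose the batch 1 marks lie between −0.32 and 0.046 and those of batch 2 lie further to the left.

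In separate estimates for the sexes at the high dose, Alpi differed by −0.62 ± 0.40 in males and −1.02 ± 0.41 in females (edgeR adjusted p = 0.403 and 0.289). The difference between the sexes in the high-dose effect was tested directly. It called no gene (0%; 245 had an unadjusted p under 0.05, and DESeq2 called 0). Female and male controls differed in 9 genes (0.0594%, with 0.0198% higher and 0.0396% lower in females), none of them a hydrolase.

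Other enzymes of the same membrane gave further calls at the high dose. Of 16 listed hydrolases 12 were expressed highly enough to test, 4 fell, none rose, and the median difference was −0.57. Over all genes this comparison called 1829 of 15164, in either direction. Those that fell were Ace (angiotensin-converting enzyme, −1.18 ± 0.40, edgeR adjusted p = 0.046), the nucleotide pyrophosphatase Enpp3 (−1.05 ± 0.33, adjusted p = 0.033), the ecto-5′-nucleotidase Nt5e (−0.57, adjusted p = 0.042) and carboxypeptidase M, Cpm (−0.24, adjusted p = 0.037). Of 13 genes that build the microvillus 4 fell, namely Cdhr2 (−0.84, adjusted p = 0.033), Cdhr5 (−0.63, adjusted p = 0.046), Myo7b (−0.52, adjusted p = 0.038) and Eps8 (−0.52, adjusted p = 0.048). Cdhr2 and Cdhr5 are the protocadherins that link neighbouring microvilli. Villin differed by −0.41 (adjusted p = 0.080). None of 7 listed sugar, peptide and amino acid transporter genes passed, with a median of −0.28. Slc15a1, the peptide transporter that takes up what the peptidases release, was at −0.42 (adjusted p = 0.201), and Slc3a1, a subunit of the cystine and dibasic amino acid transporter, at −0.53 (adjusted p = 0.127).

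Among 14 transcription factors known to act on brush border genes 5 fell and none rose, with a median of −0.18, beside 1829 of 15164 genes called in either direction. Those that fell included Prdm1 (−0.64 ± 0.13, edgeR adjusted p = 0.021), Klf4 (−0.48, adjusted p = 0.037), Gata6 (−0.18, adjusted p = 0.040) and Maf (adjusted p = 0.0419). Hnf4a at −0.14 (adjusted p = 0.138) and Cdx2 at −0.03 did not pass. At the low dose none of these genes was called.

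Markers of the cell types in the tissue pieces are given beside these results, and their summed levels were not tested. The microvillus genes summed to 3552 to 8387 CPM with a median of 5677 in controls, 3028 to 8346 CPM with a median of 4531 at the low dose, and 2743 to 6750 CPM with a median of 4155 at the high dose. Crypt and cycling cell genes summed to 573 to 1101 CPM (median 712) in controls, 510 to 1260 CPM (median 933) at the low dose and 635 to 1169 CPM (median 898) at the high dose, and 1 of 8, the cyclin Ccnb1, rose (0.34, edgeR adjusted p = 0.029). Smooth muscle genes summed to 1809 to 5800 CPM in controls and 2427 to 5946 CPM at the high dose, with none called and Tagln at 0.30 (adjusted p = 0.052). Dcn of the fibroblast list (0.31, adjusted p = 0.046) and Rgs5 of the pericyte list (0.34, adjusted p = 0.028) rose, 1 of 6 and 1 of 5 tested. Both lists were split, with 3 positive and 3 negative differences for fibroblasts (median 0.055) and 3 and 2 for pericytes (median 0.052). Chgb, of the enteroendocrine list, fell (−0.29, adjusted p = 0.024; 1 of 6), and no goblet cell gene of 7 was called, with Muc2 at −0.43 (adjusted p = 0.071). Muc2 went against most of its list, which had 5 positive and 2 negative differences and a median of 0.14. In none of these lists of other cells was more than 1 gene called, beside 12.1% over all genes.

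Of the markers of gut region 3 passed. Cybrd1, a duodenal iron reductase, was the 1 of 7 duodenum genes that fell (−0.63, edgeR adjusted p = 0.021), with Pdx1 at 0.05. Of the ileum list 3 of 6 could be tested and 2 fell, Cubn (−2.84, adjusted p = 0.021) and Nts (−1.22, adjusted p = 0.024), with Slc10a2 at −0.02. Both were low in most of the 46 libraries, with medians of 0.848 CPM for Cubn (0.0885 to 33.9) and 0.623 CPM for Nts (0.0984 to 3.41). The ileum list summed to 4.64 to 42.5 CPM in controls and 2.79 to 15.4 CPM at the high dose. Pancreatic acinar genes summed to between 0.921 and 51120 CPM in controls and between 0.743 and 31810 CPM at the high dose, and none was called. The share of reads from 167 ribosomal protein genes was 3.93% ± 0.66 in the 14 controls, then 4.46% ± 0.82 in 16 low-dose libraries and 5.55% ± 1.54 in 16 high-dose libraries (mean ± SD). With that share as a covariate 5 of 9 hydrolases kept a negative high-dose difference and Alpi was at −0.29. With the mean of the microvillus genes as a covariate 1 of 9 did, Alpi at −0.06. No gene at all was called at the high dose in either fit. Genes with an unadjusted p under 0.05 numbered 511 with the ribosomal protein share and 3972 with the microvillus mean, against 4505 in the main edgeR fit. The microvillus mean is made of 13 genes, 4 of them called lower, that follow the members from library to library. The ribosomal protein share was itself higher at each dose. For these reasons neither fit can separate cell make-up or RNA quality from the high-dose differences, and their part was not tested.

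Across the 46 duodenum libraries the 9 hydrolases varied together. All 36 pairs had a positive correlation of log2 CPM, with Spearman's rho from 0.543 (Alpi with Enpep) to 0.952 (Mme with Dpp4) and a median of 0.808. Pearson's r ran from 0.655 to 0.941 with a median of 0.838. The largest adjusted p among the 36 was 0.00015 (two-sided permutation test, 100000 resamples, Benjamini-Hochberg over 81 relations). Without the 2 libraries farthest from the median the lowest r was 0.573. It was 0.693 within batch 1 (n = 17) and 0.517 within batch 2 (n = 22). With male control replicate 1 returned, the lowest r was −0.27 and the median 0.688. Correlations with that library returned used plain log2 of CPM plus 1, unlike the other values. The change of scale and the return of the library were not separated. For comparison, each member's median rho with the 15163 other genes lay between −0.09 and −0.06.

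After Mme with Dpp4 the highest pair was Dpp4 with Tmprss15, at a rho of 0.914. Enpep stood closest to the fewest genes, with 7 genes of the whole table (0.0462%) above a rho of 0.8, against 357 (2.35%) for Treh. The members also followed the mean of the 13 microvillus genes, with r from 0.74 to 0.97. With male control replicate 1 returned, on the plain scale, that r was 0.29 for Treh, 0.38 for Tmprss15, 0.48 for Mme and 0.52 for Alpi. They ran against crypt and cycling cell genes, with r from −0.77 to −0.39, and against smooth muscle genes, with r from −0.64 to −0.43 (0.013 for Enpep with male control replicate 1 returned, on the plain scale). All 18 of these negative relations passed the permutation test, with a largest adjusted p of 0.017. Without the 2 farthest libraries the crypt relations ran from −0.72 to −0.33. Within batch 2 the weakest crypt relation was −0.17, and the others of its family reached −0.75. Goblet cell and pancreatic acinar genes gave no relation that passed, with rho up to 0.301 and 0.298.

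**Figure D3:**
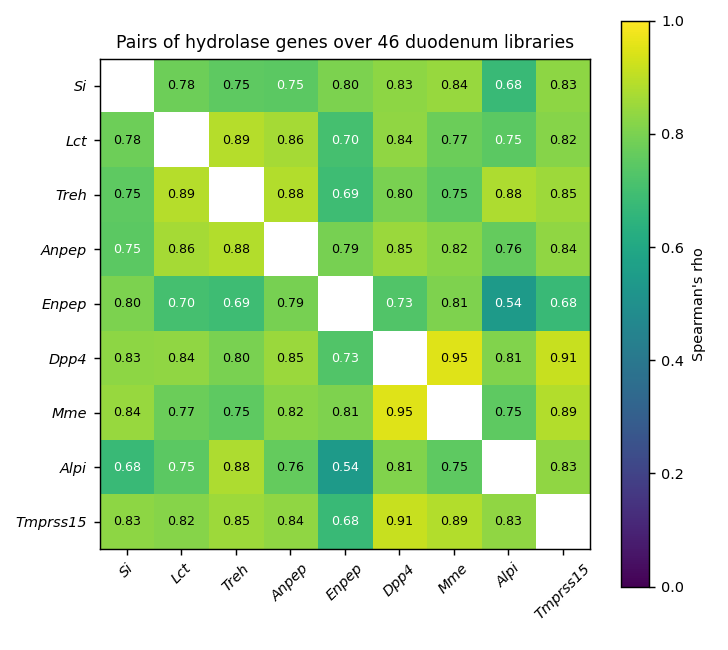
Spearman's rho of log2 CPM between each pair of the 9 hydrolases over 46 duodenum libraries, as a colour scale with the value in each cell. All 36 pairs are positive, Mme with Dpp4 at 0.952 is the brightest cell, and Alpi with Enpep at 0.543 is the darkest.

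The genes most like each member over the same 46 libraries, among 14315 genes with a symbol included several of the lists above. Treh was closest to Cdhr5 (rho 0.968), Nherf1 (0.959), a scaffold protein under the microvillus membrane, and Cdhr2 (0.955). Lct was closest to Gucy2c (0.938), the guanylin receptor, followed by the lipoprotein genes Apoa4 (0.929) and Apob (0.923). Alpi was closest to Igsf23 (0.921), Akp3 (0.921) and Abhd1 (0.919). Si was closest to Clic5 (0.899), Iqgap2 (0.893) and Gprin3 (0.876). Dpp4 was closest to the neutral ceramidase Asah2 (0.955), Cdh17 (0.954) and Mme. Mme followed Dpp4, Asah2 (0.936) and Lpgat1 (0.924). Tmprss15 was closest to Slc3a1 (0.931), Asah2 (0.930) and the iron oxidase Heph (0.930). Anpep was closest to Epb41l3 (0.947), Apob (0.938) and Ace (0.934), and Enpep to Epb41l3 (0.831), the aminopeptidase Xpnpep2 (0.822) and Slc15a1 (0.807).

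In vehicle controls the 4 peptidases, the members read in every stomach library, were higher in duodenum than in stomach, each by more than 3 on the log2 scale. That rule called 4.5% of 15279 genes higher in duodenum, and an adjusted p under 0.05 alone called 78.2%. Si, Lct, Treh, Alpi and Tmprss15 were nearly unread in stomach, entered the comparison through their duodenal reads alone and are therefore described by their reads, with no count of calls. Over 16 stomach controls Si had 36 reads in 9 libraries, Alpi 20 reads, Lct 18, Treh 6 and Tmprss15 2. The ratio of pooled levels, duodenum over stomach, was 10120 for Si (95% interval 7311 to 14450, counting error only) and 4591 for Lct (2905 to 7747). In stomach Anpep stood at 62.4 to 137 CPM with a median of 101, and the medians of Dpp4, Enpep and Mme were 22.5, 11.2 and 2.53 CPM. Their log2 differences were 3.67 ± 0.19 for Anpep, 4.33 for Dpp4, 4.73 for Enpep and 7.45 ± 0.31 for Mme, and all 4 passed (edgeR adjusted p at most 1.22e-21).

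Liver carried 3 of the peptidases at levels of its own. Dpp4 stood at 131 to 236 CPM with a median of 193, Enpep at 58.6 to 226 CPM with a median of 131, and Anpep at 62.9 to 180 CPM with a median of 135. Mme was low, with a median of 0.975 CPM, and the disaccharidases, Alpi and Tmprss15 had between 2 reads (Treh) and 28 reads (Si) in all 16 libraries together. With edgeR's TMM scaling 2 of the 4 peptidases, Anpep and Mme, were higher in duodenum than in liver, where 46.2% of genes were called higher. Dpp4 at 0.13 ± 0.14 and Enpep at 0.25 ± 0.14 were the 2 that did not pass (edgeR adjusted p = 0.384 and 0.104). With male control replicate 1 returned Enpep was at 0.70 (edgeR adjusted p = 0.0102). Anpep was higher by 2.16 ± 0.18 (edgeR adjusted p = 1.03e-14). The duodenum-to-liver values depended on the scaling. Scaling to total counts, an alternative chosen after seeing the data, moved the median of all genes by 1.01, and Dpp4 then stood at 1.11 and Enpep at 1.23, both passing (edgeR adjusted p = 8.7e-11 and 4.85e-11). Between stomach and liver 83.3% of genes were called, Dpp4 differed by −4.19, Enpep by −4.48 and Anpep by −1.51, and all 3 were lower in stomach. Under total counts the median of all genes moved by 1.07 there, and the differences were −3.12, −3.42 and −0.44, still past the test (edgeR adjusted p at most 0.00965).

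**Figure D4:**
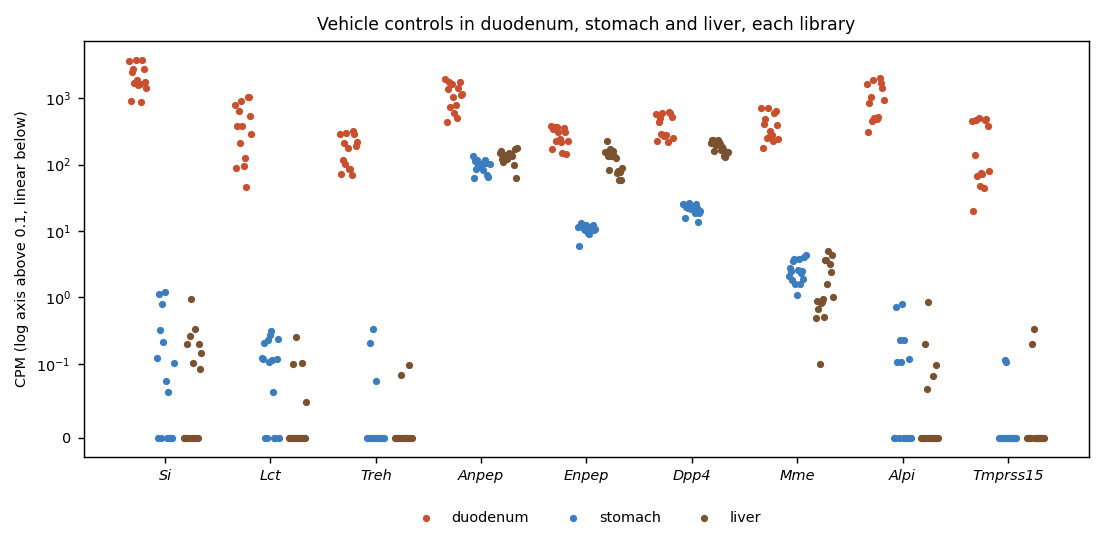
Level of the 9 hydrolases in each vehicle control library of duodenum, stomach and liver (CPM, on an axis that is linear near 0 and logarithmic above). Si, Lct, Treh, Alpi and Tmprss15 lie near 0 outside duodenum, whereas Anpep, Dpp4 and Enpep are present in every stomach and liver library.

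In stomach the 4 peptidases that could be tested, Anpep, Dpp4, Enpep and Mme, gave no call at the high dose, where 4.49% of 15140 genes were called, 2.65% higher and 1.84% lower. Mme came nearest, at 1.08 to 4.38 CPM with a median of 2.53 in controls and 0.31 to 2.78 CPM with a median of 1.57 at the high dose. Its log2 difference was −0.71 ± 0.26 (edgeR adjusted p = 0.0933), with −1.04 in batch 1 and −0.54 in batch 2. At the low dose no stomach gene was called (0%; 909 had an unadjusted p under 0.05, and DESeq2 called 28). High against low dose called 0.707% of genes, 0.614% higher and 0.0925% lower. Female against male stomach controls called 0.172%, with 0.0793% higher and 0.0925% lower. None of the 4 peptidases was among the genes called in either comparison.

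In liver no dose difference was detected in these enzymes. At the high dose none of 13130 genes was called (0%; 446 had an unadjusted p under 0.05, and DESeq2 called 0). At the low dose the count was also 0 (0%; 272 unadjusted, and 0 by DESeq2). Mme differed by 0.87 ± 0.36 at the high dose (edgeR adjusted p = 1).

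Of the 4 liver peptidases 2 differed between the sexes in vehicle controls. Mme was lower in females, at 0.0996 to 0.938 CPM with a median of 0.751, than in males, at 1.01 to 4.97 CPM with a median of 3.41. The groups of 8 did not overlap, and the log2 difference was −2.44 ± 0.52 (edgeR adjusted p = 0.000386). Enpep was higher in females, at 82.3 to 226 CPM with a median of 149, than in males, at 58.6 to 136 CPM with a median of 79.9. These groups overlapped, and the difference was 0.65 ± 0.16 (edgeR adjusted p = 0.00267). In the same comparison 22.8% of 13130 genes were called, 10.5% higher and 12.3% lower in females.

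Dpp4, at 161 to 236 CPM in females and 131 to 204 CPM in males, did not pass (0.25 ± 0.10, edgeR adjusted p = 0.0614; 0.0453 with scaling to total counts), and Anpep was at −0.04. Both directions held within batches, with Mme at −2.38 and −2.57 and Enpep at 0.35 and 0.83 in batches 1 and 2, although no member passed in batch 1 alone. In treated liver the sexes overlapped for Mme. At the low dose its level was 0.0542 to 2.24 CPM in females and 0.746 to 4.83 CPM in males, and at the high dose 0.253 to 3.91 CPM and 1.78 to 11.6 CPM.

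**Figure D5:**
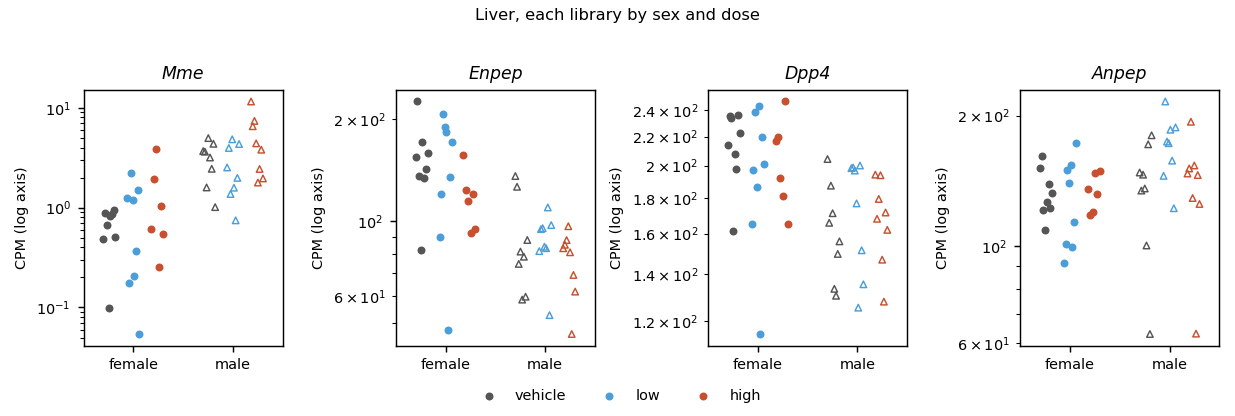
Level of the 4 peptidases read in liver (CPM) by sex and dose, 1 point per library. In vehicle controls Mme does not overlap between the sexes, Enpep and Dpp4 reach higher in females, and Anpep has medians of 130 CPM in females and 141 CPM in males.

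The pair of Mgam2 rows, named for a relative of maltase-glucoamylase, behaved differently across organs. The first (ENSRNOG00000026177) ran from 684 to 2520 CPM with a median of 1448 in duodenum controls and had a median of 939 CPM at the high dose. Its log2 difference was −0.46 ± 0.24 (edgeR adjusted p = 0.204). It was also read in every liver control, at 38.9 to 201 CPM, and in stomach at a median of 0.895 CPM. In liver controls it was higher in females by 0.66 ± 0.24 (edgeR adjusted p = 0.0425), a call kept in 37 of 46 fits without 1 library. The second (ENSRNOG00000066165) had a median of 64.3 CPM in duodenum controls and differed by −0.30 ± 0.21 at the high dose (edgeR adjusted p = 0.358). No read of it was counted in 16 liver controls, which allows a pooled level of up to 0.0158 CPM (3 reads over all 16). As the pair shares a symbol and a family, the division of reads between the rows is uncertain.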

How the data were processed

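The authors deposited estimated counts (expected counts, as Salmon gives) per gene and per transcript for each tissue. Per the submitters' processing notes, the tools were STAR 2.7.11b, Salmon 1.10.3, UMI-tools 1.1.5, Trim Galore 0.6.10, cutadapt 4.9, MultiQC 1.28 and FastQC 0.12.1, with the rat build mRatBN7.2. The notes give neither their order nor how duplicate molecules were handled. Of 30562 genes 4380 had no symbol.

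Counts were rounded and tested with edgeR 4.0.16 (R 4.3.3): genes with too few reads were dropped (filterByExpr, minimum count 10, minimum total 15), libraries were scaled by TMM, and a mean for each sex and dose plus batch was fitted over 46 duodenum, 48 stomach or 46 liver libraries, or over the 46 vehicle controls of the 3 tissues. P-values were adjusted by Benjamini-Hochberg over all genes tested, with a call at an adjusted p under 0.05. Levels are CPM of the library total and are not adjusted for gene length, so genes were not ranked against each other. Correlations used log2 CPM (TMM, prior count 2), except those with duodenum male control replicate 1 returned, which used log2 of CPM plus 1 without TMM. Alternatives were DESeq2 1.42.0, its size factors in edgeR, no filter, no batch term, each batch alone, a replicate block, return of duodenum male control replicate 1, 2 covariates and each library left out. Summed alkaline phosphatase rows and scaling by total counts were added after seeing the data. Replicate numbers were not used to pair samples in the main fits, and the labels do not say whether same-numbered samples share an animal.

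On simulated counts for the high-dose duodenum comparison (15056 genes) the test recovered 73 of 100 genes changed 1.5-fold and 91 of 100 changed 2-fold, with 5.75% false calls. The changed genes were drawn at random from all genes, and each gene was simulated independently of the others. The members vary together, so these are not rates for the members. The members and lists were chosen with earlier results of these data known. The text names all members, the called genes of a list with the smallest p (up to 4; 1 or 2 where none was called), the 3 genes most like each member, and Vil1, Fabp6, Slc10a2, Pdx1, Cdx2 and Hnf4a; Maf is named outside this rule, after its value was seen, and 1 called transcription factor is not reported here. Promoter sequences come from RefSeq build GRCr8, which differs from the build of the counts; no coordinates were joined.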

Additional observations from a re-analysis of the deposited data

Results flagged for a closer look

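Single libraries stood apart from the other 7 of their sex and dose in 14 of 111 combinations of gene and group checked with Dixon's test. Its rate of about 1 in 20 by chance holds for independent, normally spread values. Some groups here were near 0 and 1 library could be flagged for several genes, so the 14 are not set against that rate. In stomach female low-dose replicate 4, Alpi was at 10.7 CPM (0 to 0.471 in the others), Treh at 2.94 CPM (0 to 0.101), Tmprss15 at 2.37 CPM (0 to 0.236) and Si at 2.23 CPM (0 to 0.236). In stomach female high-dose replicate 5, Si was at 1.98 CPM (0 to 0.0714) and Alpi at 1.279 CPM (0 to 0.154). These are the small intestinal enzymes that the other stomach libraries of the group hardly hold. Stomach female control replicate 2 was low for the peptidases Dpp4, at 15.8 CPM (21.6 to 26.9), and Enpep, at 5.97 CPM (10.4 to 13.3).

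In liver, female control replicate 7 had Si at 0.938 CPM (0 to 0.263) and Alpi at 0.853 CPM (0 to 0.199). Female control replicate 4 was low for Mme, at 0.0996 CPM (0.488 to 0.938), and for Dpp4, at 161 CPM (198 to 236). Anpep was at 63.0 CPM in male high-dose replicate 6 (125 to 194), and Enpep at 52.7 CPM in male low-dose replicate 7 (81.5 to 110).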

How the results depend on the processing

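The count of hydrolases called at the high dose in duodenum was 1. It was 2 with DESeq2 (Alpi and Treh), and 0 without the low-count filter, without the batch term, in batch 1 alone, in batch 2 alone, with male control replicate 1 returned, or with either covariate. Leaving out each library in turn gave 0 to 3. Alpi kept its call in only 16 of these 46 fits, so that leaving out most single libraries ended it, male control replicates 5 and 6 among them (adjusted p = 0.108 and 0.0861). Treh gained one without male control replicate 3 or 4 (adjusted p = 0.0443 and 0.0372), and Lct without male high-dose replicate 6 (adjusted p = 0.0447). Over all genes the high-dose calls were 1829, against 2421 with DESeq2, 1102 with no filter, 981 with no batch term, 0 and 67 in batches 1 and 2 alone, 2481 with male control replicate 1, and 0 with either covariate. The low-dose count of hydrolases was 0, and 3 in batch 2 alone, where 193 of 15185 genes were called (1.27%). In liver the count of peptidases that differed between the sexes was 2, and 0 in batch 1 alone. The median r among members was 0.838, and 0.688 with male control replicate 1, where plain log2 of CPM plus 1 was used. The cause of these shifts was not tested.

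The mean correlation of same-numbered samples, by number, ran from −0.03 to 0.16 in duodenum, −0.02 to 0.12 in stomach, −0.07 to 0.02 in liver and −0.04 to 0.11 among the controls of the 3 tissues. Single pairs fell below 0 in each. These correlations cannot decide whether same-numbered samples share an animal, which the labels do not say. The main fits therefore treated the samples as unpaired, as an assumption. The replicate block raised the genes called at the high dose in stomach from 680 to 1071, with 0 peptidases among them. In duodenum with the replicate block 0 hydrolases and 1433 genes were called at the high dose, and Tff2 turned to 0.19 and Pnlip to 0.22, from −0.07 and −0.35.

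With the microvillus mean as covariate these high-dose log2 differences turned positive: Tmprss15 0.54, Lct 0.26, Mme 0.28, Si 0.26, Enpep 0.15, Dpp4 0.13, Anpep 0.12, Treh 0.0048, the first Mgam2 row 0.034, Slc3a1 0.13, Slc15a1 0.13, Slc10a2 0.15, Tff2 0.28 and Apoa1 0.59. At the low dose they were Si 0.21, Mme 0.097, Enpep 0.093, Tmprss15 0.088, Anpep 0.064, Lct 0.057, Dpp4 0.033 and Alpi 0.025. With the ribosomal protein share they turned for Si (0.19), Enpep (0.11), Mme (0.10), Tmprss15 (0.00047), the Mgam2 rows (0.21 and 0.19), Muc2 (0.064), Gkn1 (0.014), Tff2 (0.32), C1qa (−0.053) and Cd3g (−0.16), and at the low dose for Si (0.0025). In batch 1 alone Si (0.046) and Treh (0.0068) turned at the low dose and Slc10a2 (0.0041) and Pdx1 (−0.071) at the high dose. Tff2 turned in batch 2 (0.93) and with male control replicate 1 (0.022). Under total counts Tff2 (0.020), Cdx2 (0.013) and Slc10a2 (0.044) turned. Liver Anpep by sex was 0.043, 0.0033 and 0.0018 in batch 1, in batch 2 and under total counts. Leaving out 1 library moved Tff2 from −0.64 to 1.18, Pnlip from −1.38 to 1.05, Slc10a2 from −0.078 to 0.067, Pdx1 from −0.0063 to 0.069 and liver Anpep from −0.14 to 0.016.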

Other observations

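The duodenal enzymes differed in how many annotated transcripts carried their reads, over 46 duodenum libraries. Lct, Mme, Alpi and Tmprss15 each had 1 transcript. For Si the main transcript (ENSRNOT00000046681) held a median of 74.2% of the gene's estimated reads, from 43.3% to 84.8% between libraries, and a second transcript held the rest. Dpp4 was divided between ENSRNOT00000085426, with a median of 61.5%, and ENSRNOT00000040482, with 38.1%. The same pair of Dpp4 transcripts stood at 63.5% and 35.6% in 48 stomach libraries and at 58.0% and 40.7% in 46 liver libraries. The main transcripts of Anpep, Enpep and Treh held medians of 95.3%, 98.4% and 98.7% in duodenum. How reads were assigned between overlapping transcripts is an estimate, and no test was run on these shares.

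Several other lists had no gene that passed at the high dose in duodenum. The genes with the smallest p of their lists were Tie1 at −0.21, Cd3g at 0.73 (edgeR adjusted p = 0.082), C1qa at 0.11, Apoa1 at −0.70, Gkn1 at −0.66, Tff2 at −0.07 and Pnlip at −0.35. Apoa1 is from the hepatocyte list, which summed to 811 to 12700 CPM in duodenum controls and 29.6 to 93.9 CPM in stomach controls. Its list name is not taken as its cell source in duodenum.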
